A study of Mus musculus with 12 samples.

Results

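The genes described here are the mouse histone genes, chosen by symbol alone as every gene in either deposited table whose name has the form of a linker histone H1 gene or a core histone H2A, H2B, H3 or H4 gene. The rule found 61 genes among 20244 in all: 56 of 17866 genes in the knockdown table, 57 of 19390 in the immunoprecipitation table, and 52 in both. The samples were mouse embryos at the 2-cell stage, when zygotic transcription begins in earnest, in 4 groups of 2 libraries named A and B (control A is the control group's library A, and so on). Control embryos carried the label WT and knockdown embryos the label Eif1ad3_KD. Both groups received an RNA-cutting Cas13 enzyme. The design text gives it as RfxCas13d mRNA injected at the 1-cell stage into CF1 embryos, with a guide RNA in the knockdown group only, while the sample protocol gives Cas13d protein injected into oocytes with control or Eif1ad3 antisense morpholino oligos. The other experiment was an RNA immunoprecipitation (RIP-seq, sequencing of the RNA recovered together with a protein). Zygotes labelled Eif1ad3_OE were injected with a synthetic mRNA coding for Eif1ad3 with a His tag (200 ng/uL), 200 cells per replicate were lysed at the 2-cell stage, and RNA was recovered with an anti-His antibody (the His libraries) or with IgG, the negative control. The tagged protein was thus made from injected mRNA rather than from the embryo's own gene and each of these libraries pooled embryos.

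Histones are the proteins around which DNA is wound in chromatin. Replication-dependent histone genes lie in clusters of many near-identical copies, are transcribed in S phase, and give mRNAs that mostly end in a stem-loop rather than a poly(A) tail. Replacement variants such as H3.3, encoded by H3f3a and H3f3b, and H2A.Z, encoded by H2az1 and H2az2, come from scattered single genes with ordinary polyadenylated mRNAs and are deposited throughout the cell cycle. H1f8 (formerly H1foo) is the linker histone of the oocyte, whose mRNA is stored in the egg and whose protein is replaced by somatic H1 in the early embryo. Libraries were made with the Smart-seq2 chemistry, which primes on poly(A) tails, so the values below are of RNA that this step captured.

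By class, the 61 genes held 46 replication-dependent copies (5 H1, 12 H2A, 12 H2B, 7 H3 and 10 H4 genes), 10 variants (H2ax, H2az1, H2az2, H2aj, H2bu2, H3f3a, H3f3b, H3f4, H1f0 and H1f10), the oocyte linker H1f8, the testis genes H2ac1 and H2bc1, the pseudogene H1f11-ps, and H4f16. Classes were assigned from the gene symbols alone. The promoter windows of H2bu2 and H3f4 started at 58948661 and 58961461 on chromosome 11, so these variants lay near each other, not scattered. H4f16 was counted apart from the replication-dependent copies because of its symbol. The class counts below rest on this assignment. Promoter sequences were available for most of the 61 genes. Of the 61 genes, 52 had an entry in RefSeq's promoter table for GRCm38.p6, matched by symbol, and 37 of the 39 replication-dependent genes with an entry lay on chromosome 13. The sequences below are the 150 bases before the start of transcription of 4 genes, shown to set the oocyte gene and 2 abundant variants beside a replication-dependent copy. Capitals mark CCAAT boxes (CCAAT, read as ATTGG on the other strand), a TATA box (TATAAA) and, in H1f8 only, an E-box (CANNTG).
H1f8 (chr6:115944781-115944930, plus strand): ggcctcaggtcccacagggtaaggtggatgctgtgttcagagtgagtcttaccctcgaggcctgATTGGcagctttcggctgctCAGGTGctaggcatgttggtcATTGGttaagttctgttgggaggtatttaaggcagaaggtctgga
H2az1 (chr3:137864337-137864486, plus strand): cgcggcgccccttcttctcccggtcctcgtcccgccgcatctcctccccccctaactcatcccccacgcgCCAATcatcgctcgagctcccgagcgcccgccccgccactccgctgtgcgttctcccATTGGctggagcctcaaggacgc
H3f3a (chr1:180813606-180813755, minus strand): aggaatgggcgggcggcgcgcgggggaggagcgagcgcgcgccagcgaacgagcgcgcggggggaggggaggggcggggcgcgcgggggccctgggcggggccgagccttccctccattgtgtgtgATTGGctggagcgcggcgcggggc
H2ac20 (chr3:96220881-96221030, minus strand): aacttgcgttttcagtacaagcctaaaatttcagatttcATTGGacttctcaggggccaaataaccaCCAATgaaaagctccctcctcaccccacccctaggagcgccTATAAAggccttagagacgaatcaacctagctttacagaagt

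On either strand of the 250 bases upstream, TATAAA was found in 20 of 40 windows of replication-dependent genes (50%, 39 genes), in 2 of 9 windows of variants and in 12.4% of all 32851 promoter windows of that table. CCAAT was found in 33 of 40 replication-dependent windows and 7 of 9 variant windows, against 33.8% of all windows. The octamer ATTTGCAT, a motif known from H2B promoters, was in 8 of the 40 replication-dependent windows, 1 of the 9 variant windows and 1.60% of all. The E-box CANNTG was in 24 of 40 and 5 of 9, against 66.2% of all. None of the 4 motifs contains another, though neighbouring matches can share letters. Some windows also overlap, as do those of H2ac11 (22042900-22043199) and H2bc11 (22042948-22043247) on chromosome 13. The 40 replication-dependent windows are thus not all separate stretches of DNA. All these counts are of matches of letters in a window and say nothing of binding.

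The knockdown table rests on 18173916 to 27902514 reads per library and the immunoprecipitation table on 4678563 to 8364126, so 3 reads corresponded to 0.108 to 0.165 CPM (reads scaled to a common library total) in the former and to 0.359 to 0.641 CPM in the latter. Over the genes tested, Pearson's correlation of log2(CPM + 1) was 0.962 for the control pair of libraries, 0.906 for the knockdown pair, 0.895 for the His pair and 0.465 for the IgG pair, so the IgG libraries stood apart from each other. The targeted gene Eif1ad3 was at 839 and 663 CPM in controls A and B, and in knockdown A and B it was at 277 and 377 CPM. It was at 80.3 and 83.6 CPM in the His libraries and at 1.35 and 30.8 CPM in the IgG libraries. Of 8 genes listed as 2-cell markers, the 6 in the knockdown table were detected in every control and knockdown library, with summed levels of 3365, 3331, 2398 and 2846 CPM in control A, control B, knockdown A and knockdown B. Markers of cumulus cells, which surround the egg, summed there to 22.3 to 36.2 CPM over the 6 of 12 in the table, and sperm markers to 1.89 to 5.34 CPM over 3 of 6. The knockdown and immunoprecipitation tables were normalized separately, so values from one are not tested against the other.

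Histone genes made up 0.765% and 0.826% of the control libraries' reads and 0.664% and 0.516% of knockdown A and B. Most of these reads came from variants: they were 85.1% and 85.5% of histone CPM in the controls, 65.1% in knockdown A and 92.9% in knockdown B. Replication-dependent copies gave 12.5%, 12.1%, 15.2% and 6.03% in the same order. H1f8 alone gave 2.29% and 2.37% in the controls, 19.6% in knockdown A and 1.04% in knockdown B. These shares are of reads and are not corrected for transcript length. Thus the makeup of the histone reads was alike in the control replicates and unlike in the knockdown replicates.

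**Figure D1:**
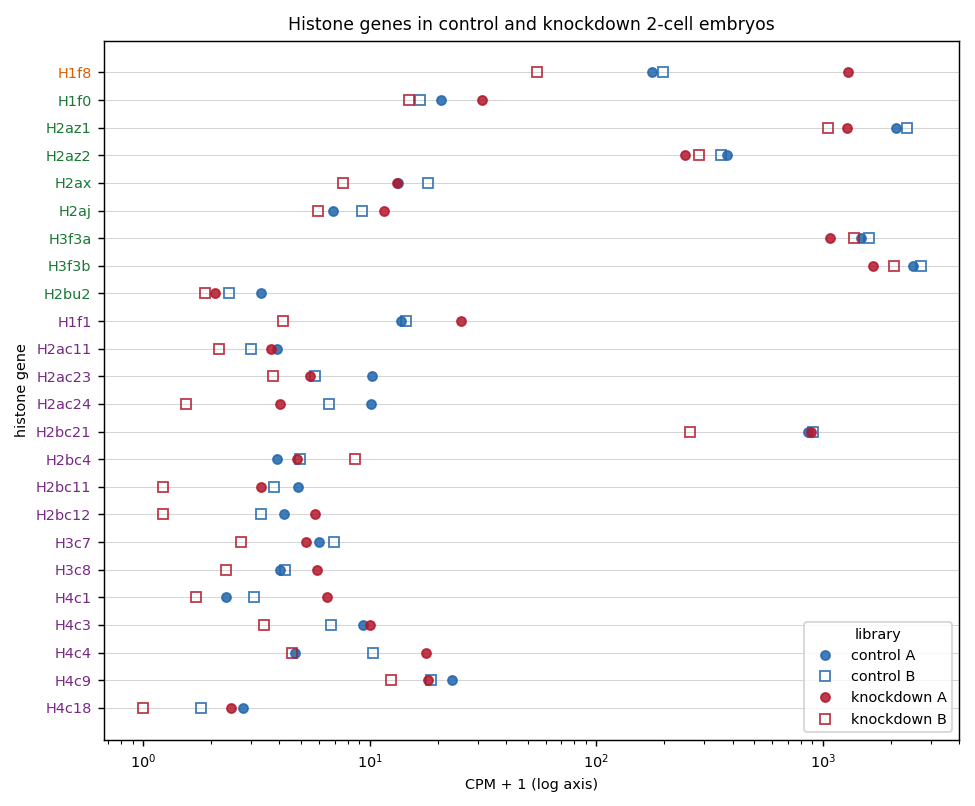
Level of a choice of the named histone genes as CPM + 1 (log axis) in the 2 control and 2 knockdown libraries. There is 1 symbol per library, and gene names are coloured by class. Some genes named in the text, among them H4f16, H2bc1, H1f4, H1f10 and H2ac20, are not plotted. H2az1, H2az2, H3f3a and H3f3b have both knockdown symbols to the left of both controls, while for H1f8 knockdown A is at 1299 CPM and knockdown B at 53.8 CPM, on either side of the controls.

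The plot of levels in the knockdown experiment shows the variants first. H2az1, which encodes the H2A.Z form found at promoters and in heterochromatin, was at 2098 and 2362 CPM in controls A and B and at 1279 and 1053 CPM in knockdown A and B. Both knockdown libraries were below both controls, and the knockdown mean was 52.3% of the control mean. Its log2 fold change, on the log2(CPM + 1) scale used for all fold changes here, was -0.94 (SE 0.30, n = 2 and 2), with an unadjusted p of 0.0137 and an adjusted p of 0.859 by limma over 13332 genes, so it did not pass the threshold of 0.05. Without knockdown replicate A its adjusted p was 0.000557 (log2 fold change -1.08), and without knockdown replicate B it was 0.00928 (-0.80). In those fits the lone knockdown library is assumed to vary like the controls. Without control A or control B it was not called (adjusted p 1.00 each, log2 fold changes -1.02 and -0.85). In such bulk libraries, fewer cells of a type and less RNA per cell cannot be told apart.

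The H3.3 genes had the same order with smaller differences. H3f3b was at 2515 and 2703 CPM in the controls and at 1669 and 2058 CPM in knockdown A and B, a log2 fold change of -0.49 (SE 0.30). H3f3a was at 1482 and 1597 CPM in the controls and at 1074 and 1369 CPM in knockdown A and B (log2 fold change -0.34, SE 0.30). Knockdown and control did not overlap for either gene, and neither passed the test. H2az2, the other H2A.Z gene, was at 378 and 356 CPM in the controls and at 246 and 284 CPM in knockdown A and B (log2 fold change -0.47, SE 0.31), again with no overlap and no call.

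The remaining variants had few reads. H2ax, whose protein is phosphorylated at DNA breaks, was at 12.4 and 17.2 CPM in the controls and at 12.1 and 6.66 CPM in knockdown A and B, and H2bu2 was at 2.32 and 1.41 CPM against 1.08 and 0.88 CPM. For both, the knockdown libraries were the lower 2 of the 4, for H2ax by a narrow margin. H2aj (5.92 and 8.27 CPM in controls, 10.6 and 4.90 CPM in knockdown A and B) and H1f0, the linker histone of quiescent and differentiated cells (19.6 and 15.6 CPM, then 30.2 and 14.0 CPM), had knockdown A above and knockdown B below both controls; the fold change of H2aj, 0.04, was below 0 under median rescaling and quantile normalization. H1f10 and H3f4 were too low to be tested. Of the 8 variants tested, 6 had both knockdown libraries below both controls, where 18.4% of all tested genes did, and the median log2 fold change of the 8 was -0.48, beside 0.02 over all genes. By limma 0 of the 8 were called, where 0% of all genes were.

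Among replication-dependent genes, reads were concentrated in 1 H2B gene. H2bc21 was at 860 and 909 CPM in controls A and B, at 886 CPM in knockdown A and at 258 CPM in knockdown B, so knockdown A lay between the controls and knockdown B stood apart. Its log2 fold change of -0.88 (SE 0.53) had an adjusted p of 0.859 by limma. Without knockdown replicate A it was -1.77 with an adjusted p of 5.43e-05, and without knockdown replicate B it was 0.0035. H2ac20, its neighbour in RefSeq on chromosome 3, whose promoter is printed above, had 6, 9, 7 and 8 reads in control A, control B, knockdown A and knockdown B, all under 1 CPM. The other 40 replication-dependent genes of the table together summed to 97.3 and 89.7 CPM in the controls, 119 CPM in knockdown A and 52.6 CPM in knockdown B.

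H1f1, a linker histone gene of the chromosome 13 cluster, was at 12.8 and 13.5 CPM in the controls, 24.4 CPM in knockdown A and 3.14 CPM in knockdown B, thus on either side of the controls. H4c9 was the H4 gene with the most reads, at 22.2 and 17.6 CPM in the controls and 17.1 and 11.4 CPM in knockdown A and B, with both knockdown libraries lower (log2 fold change -0.47, SE 0.48). H2ac24 had the largest fold change of the 30 histone genes tested over all 4 libraries: 9.12 and 5.62 CPM in the controls (228 and 140 reads) and 3.01 and 0.55 CPM in knockdown A and B (84 and 10 reads). Its groups did not overlap, and its log2 fold change of -1.72 (SE 0.66) had an unadjusted p of 0.0306 and an adjusted p of 0.859 by limma; it was -2.40 without knockdown A and -1.03 without knockdown B. H2bc11 (3.84 and 2.77 CPM, then 2.33 and 0.22 CPM), H3c7 (125 and 148 reads, then 118 and 31 reads) and H2ac23 (9.20 and 4.74 CPM, then 4.48 and 2.75 CPM) were likewise lower in both knockdown libraries. Reads of near-identical copies can be divided between genes in ways the sources used here do not state, so the values of single replication-dependent genes are uncertain.

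By role, 3 of 12 H2A genes were tested and all had a log2 fold change below 0, as did both H3 genes tested of 5, the 1 H1 gene tested of 5 (H1f1, with mean CPM of 13.1 in controls and 13.8 in knockdown embryos), 4 of the 6 H4 genes tested of 8 and 3 of the 6 H2B genes tested of 11. The H2B genes with a fold change above 0 included H2bc4, at 2.92 and 3.94 CPM in controls and 3.76 and 7.65 CPM in knockdown A and B, which overlapped. Over the 18 replication-dependent genes tested, 5 had both knockdown libraries below both controls, where 18.4% of all tested genes did, and the median log2 fold change was -0.46. With no filter on low values the median over all 41 was 0.05, with 20 lower and 21 higher, and with a pseudocount of 5 the median of the 18 was -0.15. The knockdown libraries differed in this class. Against the control mean, the median of the 18 genes was 0.05 log2 units higher in knockdown A and 0.93 lower, at -0.93, in knockdown B. The median of the 8 variants was -0.48 in knockdown A and -0.40 in knockdown B, close to each other. Over all genes tested the medians were 0.14 and -0.17. The difference between the classes within knockdown A was not tested.

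**Figure D2:**
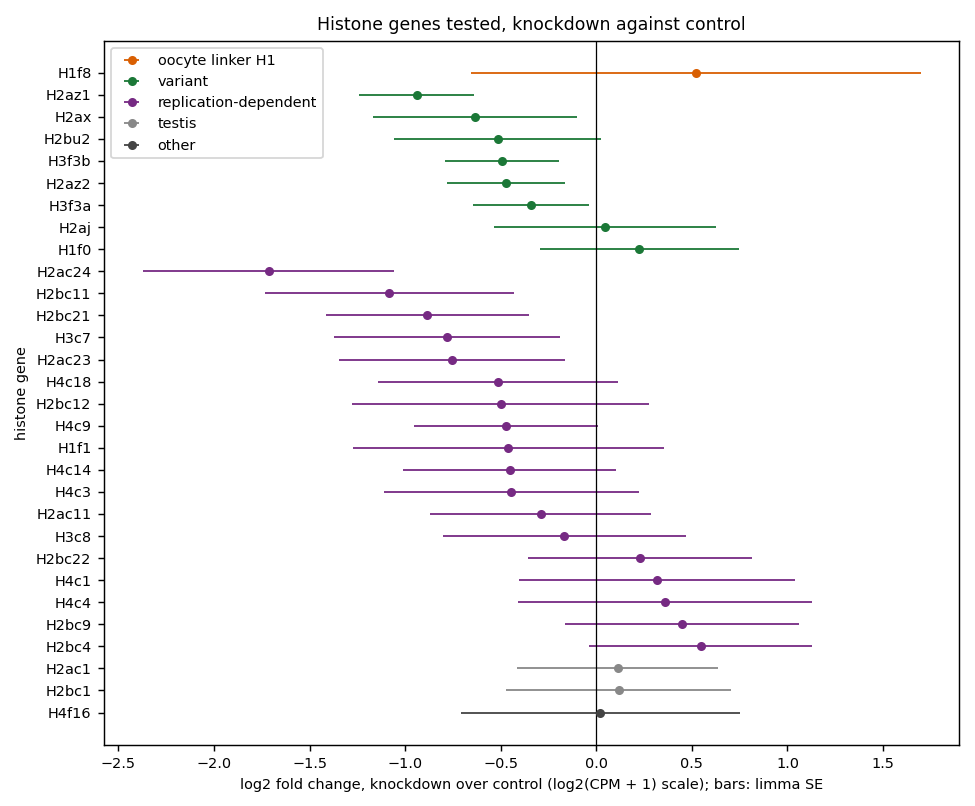
Log2 fold change, knockdown over control, of the 30 histone genes tested, on the log2(CPM + 1) scale, with limma standard errors as bars and colours for the classes. H1f8 has the widest bar (SE 1.18), and of the 8 variants 6 lie below 0, from -0.94 for H2az1 (7 under median rescaling or quantile normalization).

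H1f8 differed most between the knockdown libraries, which gave it the widest error bar in the plot of fold changes. It was at 176 and 195 CPM in controls A and B (4389 and 4867 reads), at 1299 CPM in knockdown A (36236 reads) and at 53.8 CPM in knockdown B (978 reads). The control replicates differed 1.11-fold and the knockdown replicates 24.1-fold. The log2 fold change of 0.52 had an SE of 1.18 and an adjusted p of 0.977 by limma, so no direction can be given. Without knockdown replicate B it was 2.80 (adjusted p 3.17e-06), and without knockdown replicate A it was -1.76 (adjusted p 0.000557), of opposite sign. Oocyte and maternal-store markers summed to 13351 and 10025 CPM in the controls, 15280 CPM in knockdown A and 9947 CPM in knockdown B. Of the 10 markers, all detected in every library of the table, 6 were above both controls in knockdown A, 8 were below both in knockdown B, and 4 (Gdf9, Npm2, Nlrp5 and Zar1) did both. Of all 13332 genes tested, 6061 were above both controls in knockdown A, 6227 were below both in knockdown B, and 19.1% did both. Their part in the values of H1f8 was not tested.

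Of the 30 histone genes tested, 11 had knockdown A above and knockdown B below both controls, an arrangement found in 19.1% of all tested genes: H1f8, H1f0, H1f1, H2aj, H2bc1, H2bc12, H3c8, H4c1, H4c3, H4c4 and H4f16. The opposite arrangement was found in 0 of the 30 and in 8.21% of all tested genes. Knockdown B was below both controls for 26 of the 30, where this held for 46.7% of all tested genes. Knockdown B was also the library with the fewest reads, 18173916, and its part in these counts was not tested.

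In all, 30 of the 56 histone genes in the knockdown table passed the filter of at least 1 CPM in at least 2 libraries, and 26 did not. By limma 0 of the 30 were called, where 0 of 13332 genes were called (0%), as edgeR also found; DESeq2 called 15 genes (0.113%) and 0 histone genes. At an unadjusted p under 0.05 there were 726 genes (5.45%) and 2 histone genes, H2az1 and H2ac24. Both knockdown libraries were below both controls for 11 of the 30, beside 18.4% of all genes, and above both for 0, beside 18.1%. The median log2 fold change over the 30 was -0.45, with 19 lower and 11 higher, and 0.09 without knockdown replicate B. With no filter on low values the median over all 56 was 0.03. Without knockdown A the median over 27 histone genes was -0.75 (24 lower, 3 higher), beside -0.16 over 12547 genes. Without knockdown B, 13 of 29 histone genes were lower and 16 higher, and the median over 12810 genes was 0.14. In these fits H2az1 was at -1.08 and -0.80, of the same sign, and H1f8 at -1.76 and 2.80, of opposite sign.

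The genes that handle histone mRNA and histone protein were listed separately. Of 22 genes of histone transcription and 3′ processing that were measured, 8 had a log2 fold change above 0 and 14 below 0 in knockdown embryos, 0 were called, and the median log2 fold change was -0.17. Slbp, which binds the stem-loop of replication-dependent mRNAs, was at 469 and 513 CPM in controls and at 1757 and 799 CPM in knockdown A and B. Both knockdown libraries were above both controls, and its log2 fold change of 1.27 (SE 0.41) had an adjusted p of 0.859 by limma. The cyclins E, partners of Cdk2 in S-phase entry, had differences of opposite sign, 1.24 for Ccne2 and -0.76 for Ccne1, neither called. Of 26 histone chaperones and import factors, 10 had a log2 fold change above 0 and 16 below 0, and 0 were called. The H3-H4 chaperone Asf1a was at 53.1 and 67.5 CPM in controls and at 152 and 112 CPM in knockdown A and B. Hat1, which acetylates new H4, was at 43.4 and 47.2 CPM, then 74.0 and 161 CPM. Ipo4, an importin for H3-H4, was at 34.9 and 35.7 CPM, then 16.8 and 13.9 CPM. These 3 genes did not overlap between groups and did not pass the test. Over the 26, 4 had both knockdown libraries above both controls and 8 both below, beside 18.1% and 18.4% of all genes. Of 5 histone variants with other forms of symbol in the table, the 2 tested were both lower in both knockdown libraries, an arrangement of 18.4% of all tested genes, among them the centromeric H3 gene Cenpa, at 446 and 483 CPM, then 304 and 216 CPM (log2 fold change -0.85, adjusted p 0.859 by limma). The 2-cell markers also had a lower mean in all 6, with a median of -0.37 and 0 calls, and their part in the histone values was not tested.

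The immunoprecipitation asks which RNAs were recovered with His-tagged Eif1ad3 above IgG. Histone genes made up 0.722% and 0.703% of reads in His A and B and 0.355% and 0.353% in IgG A and B. H1f8 gave 53.6% and 52.5% of histone CPM in the His libraries and 10.3% and 3.76% in IgG A and B. Variants gave 43.3% and 44.5% in His and 84.3% and 79.7% in IgG, and replication-dependent copies 2.92% and 2.81% in His and 4.59% and 16.5% in IgG. The oocyte linker histone was thus the largest source of histone reads in the His libraries; the bars by library show it beside H3f3b and Cenpa.

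**Figure D3:**
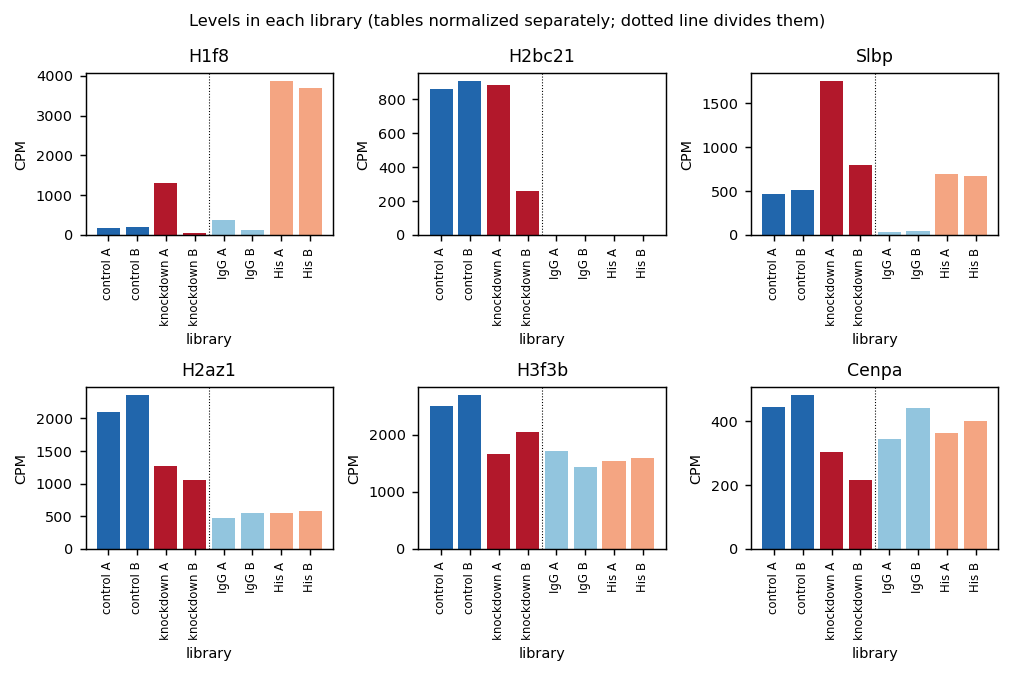
CPM of H1f8, H2bc21, Slbp, H2az1, H3f3b and Cenpa in each of the 8 libraries, 1 bar per library; the dotted line divides the separately normalized knockdown and immunoprecipitation tables. H1f8 is at 365 and 133 CPM in the IgG libraries and at 3869.5 and 3692 CPM in the His libraries, while the H3f3b bars of those 4 libraries lie between 1443 and 1716 CPM.

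H1f8 was at 3869.5 and 3692 CPM in His A and B (32365 and 29234 reads). In IgG A and B it was at 365 and 133 CPM (2164 and 620 reads). Both His libraries were above both IgG libraries, and the His replicates differed 1.05-fold while the IgG replicates differed 2.76-fold. The mean was 15.2 times as high in His, and the log2 fold change was 4.10 (SE 0.57, n = 2 and 2) with an adjusted p of 0.0153 by limma over 11232 genes. That comparison called 4008 genes (35.7%) as higher in His and 103 (0.917%) as lower, and the median gene had a log2 fold change of 2.01, so H1f8 lay above a broad shift. It was still called without either His library (adjusted p 0.00532 and 0.00282) and without either IgG library (3.12e-05 and 2.73e-05), in fits that assume the lone library to vary like the pair of the other group, although the IgG pair correlated at only 0.465. It was not called when libraries were rescaled to a common median (log2 fold change 0.17, adjusted p 0.844), after quantile normalization (4.45, adjusted p 0.14) or by edgeR on the recovered reads (3.76, adjusted p 0.0547). Oocyte markers had a higher mean in His for 9 of 10: they summed to 14111 and 14158 CPM in His and to 4687 and 6262 CPM in IgG, 4 of the 10 were called higher (1 of them, Zp1, entered only through His), and their part in the H1f8 value was not tested.

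The abundant variants stood otherwise. H2az1 was at 552 and 583 CPM in His and at 467 and 543 CPM in IgG A and B, a log2 fold change of 0.17 (SE 0.21, adjusted p 0.643 by limma). H3f3b was at 1539 and 1597 CPM in His and at 1716 and 1443 CPM in IgG, which overlapped (log2 fold change -0.01, SE 0.11, adjusted p 0.983 by limma). H3f3a was at 512 and 449 CPM in His and at 175 and 295 CPM in IgG, with no overlap (1.07, SE 0.42, adjusted p 0.154 by limma). The log2 fold change of H3f3a was 0.70 without IgG A and 1.45 without IgG B. In those fits the medians over all genes were higher, at 2.17 and 2.42. H2az2 was at 296 and 268 CPM in His and at 217 and 458 CPM in IgG. For these 4 genes each IgG library held 1039 to 10166 reads. H1f0 (164 and 144 CPM in His, 168 and 54.3 CPM in IgG) overlapped as well.

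**Figure D4:**
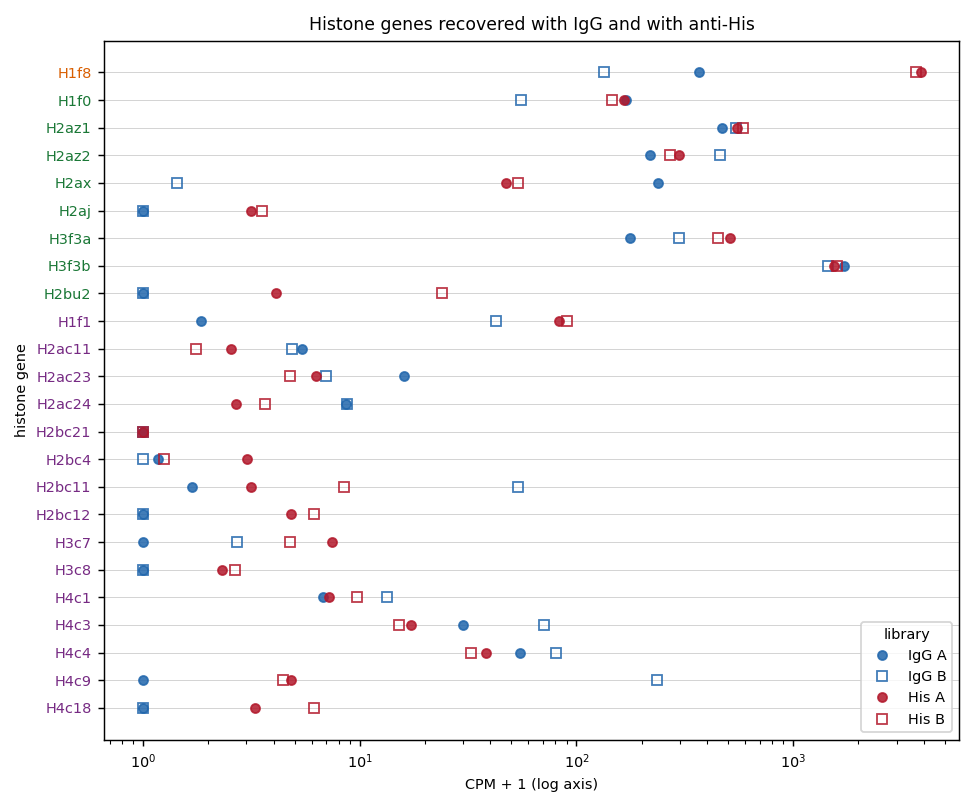
Level of a choice of the named histone genes as CPM + 1 (log axis, so that no reads stand at 1) in the 2 His and 2 IgG libraries. There is 1 symbol per library, and gene names are coloured by class. Some genes named in the text, among them H4f16, H2bc1, H1f4 and H1f10, are not plotted. Both His symbols of H1f8 lie to the right of its IgG symbols, H3f3b has all 4 symbols close together, and H2bc21 has 0 CPM in all 4 libraries.

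The plot of levels in the immunoprecipitation shows how far apart the IgG replicates were for low genes. H2ax was at 46.4 and 52.7 CPM in His, at 237 CPM in IgG A (1402 reads) and at 0.43 CPM in IgG B (2 reads). H4c9 was at 3.83 and 3.41 CPM in His, at 0 in IgG A and at 235 CPM in IgG B (1100 reads). H1f1 was at 82.3 and 89.3 CPM in His, at 0.84 CPM in IgG A and at 41.7 CPM in IgG B. In all, 8 of 57 histone genes (H1f1, H1f3, H2ac1, H2ax, H2bc11, H4c14, H4c8 and H4c9) had at least 10 CPM in 1 IgG library and under 1 CPM in the other, as did 2657 of all 19390 genes. For H2ax no direction can be given: without IgG A its log2 fold change was 5.14, and without IgG B it was -2.24. H1f1 had both His libraries above both IgG libraries and was not called (adjusted p 0.315 by limma). Its log2 fold change was 1.02 without IgG A and 5.56 without IgG B.

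For 7 histone genes both His libraries held at least 1 CPM and both IgG libraries held no read: H2aj, H2bu2, H2bc1, H2bc12, H3c8, H4c18 and H4f16. A total of 28.2% of the genes tested had no read in either IgG library. These 7 genes entered the test only through the His libraries, so they had to be higher there, and their tests support nothing. Against the higher IgG floor of 3 reads per library, 0.641 CPM, the His mean was at least 8.19-fold higher for H4f16 (4.18 and 6.32 CPM), 7.95-fold for the testis H2B gene H2bc1 (5.14 and 5.05 CPM) and 7.02-fold for H2bc12 (3.83 and 5.18 CPM). The bounds were 3.65-fold for H2aj and 2.31-fold for H3c8, from 11 to 20 reads per His library. The His libraries differed for H4c18, at 3.54 and 8.08 times the floor in His A and B, and for H2bu2 (3.11 and 22.9 CPM), at 4.85 and 35.7 times the floor. The direction of the 7 genes turned under median rescaling, and that of all but H2bu2 under quantile normalization. H1f4, a replication-dependent linker histone gene, was at 4.42 and 4.80 CPM in His and at 0 and 0.85 CPM in IgG (4 reads), also entered through the His libraries, and had the opposite sign under both of those scalings.

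Of the 19 replication-dependent genes tested, 7 had both His libraries above both IgG libraries, beside 54.1% of all genes, and 5 had both below, beside 9.06%. Among the latter were all 3 H2A genes tested: H2ac24 (1.67 and 2.65 CPM in His, 7.59 and 7.69 CPM in IgG), H2ac11 (1.55 and 0.76 CPM, then 4.39 and 3.85 CPM) and H2ac23 (5.26 and 3.79 CPM, then 15.0 and 5.98 CPM). H4c3 was at 16.3 and 14.1 CPM in His and at 29.0 and 69.9 CPM in IgG, and H4c4 at 37.1 and 31.7 CPM in His and at 54.0 and 79.1 CPM in IgG. The variant linker histone gene H1f10 was at 7.29 and 6.06 CPM in His and at 15.9 and 16.9 CPM in IgG. None of these 6 passed the limma test; the smallest adjusted p was 0.0686, for H2ac11. On the recovered reads DESeq2 called 4 of them, H2ac24 (adjusted p 0.00433), H1f10 (0.0141), H4c3 (0.0209) and H2ac11 (0.022), where it called 49.1% of all genes, and edgeR called none.

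In all, 32 of the 57 histone genes in this table were tested, and 8 were called (H1f8, H4f16, H2bc1, H2bc12, H4c18, H1f4, H2aj and H3c8), all higher in His, where 35.7% of all genes tested were called higher and 36.6% in either direction. Of these 8 only H1f8 reached 1 CPM in an IgG library; the other 7 passed the filter through the His libraries alone, which fixed their direction, so the count supports nothing about histone genes. Of all genes tested, 38.2% entered in that way. At an unadjusted p under 0.05 there were 12 histone genes, beside 44.6% of all genes. Both His libraries were above both IgG libraries for 14 of the 32, beside 54.1% of all genes, and below both for 6, beside 9.06%. The median log2 fold change was 0.09 over the 32 (16 higher, 16 lower), 0.68 over 9 variants and -0.80 over 19 replication-dependent genes, beside 2.01 over all genes. With 1 His library left out the count was 1, H1f8, each time, among 6 of 6750 genes without His A and 6 of 6754 without His B. Without IgG A it was 15 (9 higher, 6 lower), among 7599 of 10996 genes, and without IgG B 14 (10 higher, 4 lower), among 7679 of 10972. It was 0 by edgeR (0% of all genes, with 4592 at an unadjusted p under 0.05) and 14 by DESeq2 (49.1% of all genes). The medians also depended on single libraries and on the filter. The replication-dependent median was 1.31 without IgG B and 0.43 with no filter, and the variant median was 0.28 without IgG B and -0.15 by DESeq2. Scaling changed the sign as well: after median rescaling all genes were at -1.92 and the histone genes at -3.84. Relative to the median gene, the histone median was at -1.92 in both, at -0.71 after quantile normalization and at -1.75 by edgeR.

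The genes that handle histones were spread in the same comparison. Of 22 transcription and 3′ processing genes, 5 were called higher in His, where 35.7% of all genes were, and the median log2 fold change was 1.59. Of the 5, Npat, Cpsf3, Cstf2 and Cstf2t were under 1 CPM in both IgG libraries and entered the test only through His, which fixed their direction, so Slbp alone was open to either direction. Slbp was at 699 and 671 CPM in His and at 29.9 and 50.2 CPM in IgG A and B. Its mean was 17.1-fold higher in His (log2 fold change 4.11, adjusted p 0.0152 by limma). By edgeR and after quantile normalization 0 genes were called in this comparison, so the call of Slbp depends on the method. Of 26 chaperones and import factors, 7 were called higher, again beside 35.7% of all genes, with a median of 1.54. Of the 7, Asf1a, Anp32e, Hjurp, Ssrp1, Hat1 and Dnajc9 entered only through His, and Rbbp7 did not. They included Ssrp1 of the FACT complex, at a mean of 112 CPM in His and 0.338 CPM in IgG, and the CENP-A chaperone Hjurp, at 68.9 and 0.338 CPM. Asf1a, with no IgG read, was at least 32.2-fold higher. Both medians lay below the median gene's 2.01. Of 5 listed histone variants with other symbols, Macroh2a1, a large H2A variant of repressed chromatin, had no IgG read and entered the test only through the His libraries, where its mean was at least 34.1-fold above the floor, while Cenpa averaged 383 CPM in His and 392 CPM in IgG. Marker lists moved as well: the 6 2-cell markers summed to 132 and 134 CPM in His and to 1.35 and 27.8 CPM in IgG, 10 of 12 cumulus markers to 54.8 and 54.9 CPM against 6.92 and 0 CPM, and 4 of 6 sperm markers to 4.42 and 10.4 CPM against 47.4 and 54.3 CPM. The cumulus sums came mainly from Amhr2 (48.1 and 39.7 CPM in His, 5.91 and 0 CPM in IgG). Tnfaip6 (44 and 98 reads), Foxl2 (3 and 16) and Cyp19a1 (3 and 4) had reads in His and 0 in IgG. The sperm sums in IgG came from Prm2 (47.4 and 54.3 CPM, against 1.08 and 7.20 CPM in His). Acrv1 of sperm went the other way, with 28 and 25 reads in His and 0 in IgG. Has2, Fshr, Cyp11a1, Inhba and Ptgs2 of cumulus cells and Prm1 and Akap4 of sperm had 0 reads in all 4 libraries. The part of these marker lists in the histone values was not tested.

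The genes with the pattern most like H1f8 were found by Pearson's correlation of log2(CPM + 1) over the 8 libraries, over 6142 genes that reached 10 CPM in each control and knockdown library. They were Parl (0.975), Arf1 (0.962), Aven (0.956), E330021D16Rik (0.949) and Dad1 (0.943). Parl, a mitochondrial protease gene, was at 567 and 505 CPM in the controls, 806 CPM in knockdown A and 272 CPM in knockdown B, and at 1131 and 1105 CPM in His against 573 and 429 CPM in IgG. The measure pools 2 tables that were normalized separately, so the correlations are a description only.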

How the data were processed

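Libraries of captured mRNA (a Smart-seq2 kit and Nextera XT, HiSeq X, per the labels' protocols) were deposited as CPM, reads per gene scaled by the authors to a common library total. The submitters' processing notes name Trim Galore 0.6.7, FastQC, HISAT2 2.2.1, featureCounts 2.0.1, edgeR and GRCm39; how reads of near-identical copies or strands were counted is not given in the sources used here. In the deposited CPM, 100% of values were whole multiples of 1 read (tolerance 0.01 read), so reads were recovered. Floors of 3 reads cover counting error only, since PCR reads without molecular identifiers are not independent molecules. The labels name 12 samples; the names of 4 value columns do not decide between input and total RNA, so these columns were not used and their comparisons were not made.

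A gene entered a test where 2 or more libraries reached 1 CPM. Values of log2(CPM + 1) were fitted by limma 3.58.1 (R 4.3.3; moderated test with trend, two-sided, Benjamini-Hochberg over all genes, threshold 0.05), over the 4 libraries of each comparison. This scale understates changes of low genes. The His against IgG fit was planned over more libraries. Alternatives were pseudocounts 0.1 and 5, other filters and scalings, the replicate letter as a block, leaving out each replicate, and count tests of the recovered reads (DESeq2 1.42.0 and edgeR 4.0.16). The fits were tested on simulated data. The labels do not say whether replicates were separate collections, so p-values measure only the spread between these libraries.

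Histone genes, roles and the 7 gene lists were chosen with earlier results of these data known. Genes named are H1f8, up to 4 per role by level in the knockdown table, up to 4 per direction with the largest change among genes whose groups did not overlap, those past the threshold, and leading genes of the processing and chaperone lists; others were chosen after their values were seen. Promoter sequences are RefSeq's for GRCm38.p6, another build than the authors'.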

Additional observations from a re-analysis of the deposited data

How the results depend on the processing

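With 2 libraries per group, calls depended on single libraries. For knockdown against control, 0 genes were called with other pseudocounts, filters and scalings, by edgeR (0) and without either control; the replicate block gave 2, the block with median rescaling 6, DESeq2 15, and leaving out a replicate gave 0 to 1894 (1894 without knockdown A, 414 without knockdown B). Histone calls were 0 in every setting except without knockdown A or knockdown B. There the lone knockdown library is assumed to vary like the controls. Replicate letters give only 2 pairs per table and are not stated to mark shared handling; same-letter deviations correlated at 0.146 in the knockdown table and -0.01 in the other. For His against IgG, 4111 genes were called; median rescaling gave 2213, requiring a 5 CPM mean 2356, the replicate block 3894, the block with median rescaling 940, quantile normalization 0 (2339 at an unadjusted p under 0.05), edgeR 0 (4592 unadjusted), and leaving out a replicate 6 to 7679. The 8 histone calls, all higher in His, became 17 with median rescaling, all lower, 1 with the 5 CPM filter, 8 with the replicate block, 7 with the block and median rescaling, all lower, 0 with quantile normalization or edgeR, 14 with DESeq2, and 1 to 15 without a replicate. The cause was not tested. The block kept the count of histone calls in both comparisons, with H2bu2 in place of H1f4 among the 8. Planned comparisons with input and total RNA were not run.

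Some log2 fold changes turned. For knockdown against control, those that turned without 1 replicate ranged from -0.31 to 0.75 (H1f0), -1.77 to 0.85 (H1f1), -1.76 to 2.80 (H1f8), -0.67 to 0.089 (H2ac11), -0.44 to 0.53 (H2aj), -0.37 to 0.60 (H2bc1), -1.62 to 0.62 (H2bc12), -1.77 to 0.00353 (H2bc21), -0.84 to 0.50 (H3c8), -0.64 to 1.28 (H4c1), -1.22 to 0.33 (H4c3), -0.63 to 1.35 (H4c4) and -0.13 to 1.04 (H4f16). Median rescaling, blocked or not, put H2aj at -0.00469, and quantile normalization at -0.0233; H4f16 was at -0.0288 and -0.0908 there and at -0.94 with a pseudocount of 0.1.

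For His against IgG, median rescaling, blocked or not, turned H1f0 (-3.25), H1f1 (-0.64), H1f4 (-1.89), H2aj (-2.19), H2ax (-2.47), H2az1 (-3.76), H2bc1 (-1.32), H2bc12 (-1.48), H2bu2 (-0.62), H3c8 (-2.62), H3f3a (-2.85), H4c18 (-1.76) and H4f16 (-1.30). Quantile normalization turned H1f4 (-0.73), H2aj (-0.48), H2bc1 (-0.0489), H2bc12 (-0.13), H3c8 (-0.70), H4c18 (-0.27), H4f16 (-0.0461) and H2az2 (0.23). H2ax was at -1.50 by edgeR and -1.80 by DESeq2, and H2az1 at -0.15 by DESeq2. Without 1 replicate the ranges were -0.13 to 1.49 (H1f0), -2.24 to 5.14 (H2ax), -0.70 to 0.37 (H2az2) and -0.13 to 0.12 (H3f3b).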

Other observations

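H2bc21, the replication-dependent gene with the most reads in the knockdown table, 860 and 909 CPM in the 2 controls, had 0 reads in both His and both IgG libraries, which allows at most 0.359 to 0.641 CPM there. The tables were normalized separately and the cause was not tested. Of the 57 histone genes in the immunoprecipitation table, 23 had no read in both IgG libraries and 14 in 1 of them, against 10196 and 4399 of 19390 genes, and 5 had no read in both His libraries, against 3616 of all genes.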
